A study of Mus musculus with 24 samples.

Results

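The genes described are the 128 voltage-gated and potassium ion channel genes of the mouse hypothalamus count table, chosen by gene symbol alone out of 55471 genes. The symbols are those of the Kcn series, the pore (Cacna1), alpha2delta (Cacna2d) and beta (Cacnb) subunits of voltage-gated calcium channels, the Scn sodium channel series and the Hcn series. They comprise 92 potassium, 18 calcium, 14 sodium and 4 HCN channel genes. The study had 4 groups of 6 male C57BL/6J mice aged 18 weeks, each giving 1 hypothalamus library, all with a gastric catheter and free access to chow. ExpOF mice received a sucrose-enriched liquid diet by intragastric infusion for 14 days, raised stepwise to 150% of energy intake, and control mice received sterile water at the same flow. Mice were sampled at the end of infusion (d14) or after 3 further days in which the ExpOF mice too were infused with water (d14+3). One Control d14 library (replicate 4) was left out because the study removed 1 mouse of that group for RNA quality, so 23 libraries entered the fit, with 5 in Control d14 and 6 in each other group.

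Ion channels set how a neuron turns synaptic input into firing. Sodium channels carry the upstroke of the action potential, potassium channels repolarize the membrane and hold it at rest, calcium channels couple voltage to transmitter release and to intracellular signalling, and HCN channels pass a pacemaker current that opens on hyperpolarization. Most of these channels are complexes of a pore-forming subunit and auxiliary subunits that alter gating or surface expression, and in hypothalamic feeding neurons potassium channels, including ATP-sensitive ones, link nutrient and hormone signals to excitability.

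Whole hypothalamus was sequenced in bulk, so fewer cells of a type and less RNA per cell cannot be told apart. Library totals ran from 8928182 to 34848437 counts. All 8 hypothalamic marker genes examined (Agrp, Pomc, Hcrt, Pmch, Oxt, Avp, Sim1 and Nkx2-1) were detected, with a summed level of 421 to 1130 CPM (counts scaled to a fixed library total). No list of cell type markers had a gene at 0 in every library of a group. RNA integrity numbers were 9.20 ± 0.860 (SD, n = 5) in Control d14, 9.75 ± 0.138 (n = 6) in ExpOF d14, 8.62 ± 1.09 (n = 6) in Control d14+3 and 9.43 ± 0.450 (n = 6) in ExpOF d14+3. The ribosomal protein genes were lower in ExpOF on both days, with 71 of 85 tested lower on d14 and 65 of 85 on d14+3 at an unadjusted p under 0.05. The Control d14 library left out, replicate 4, had an RNA integrity number of 9.8. Its ribosomal protein genes summed to 46863 CPM, against 7614 to 14764 in the libraries kept.

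Of the 128 channel genes, 115 passed edgeR's expression filter. The 13 that did not were Kcna7, Kcna10, Kcne1, Kcne3, Kcnj1, Kcnj13, Kcnk15, Kcnk16, Kcnk18, Kcnmb3, Kcnv2, Scn4a and Scn10a, with a mean of 0.0870 to 17.8 counts per library. Scn4a, the skeletal muscle channel, and Scn10a, a channel of sensory neurons, had means of 3.91 and 5.22 counts. Levels between genes are compared in CPM per kilobase of gene model (CPM per kb). On that scale the median over the tested channel genes was 4.79, against 3.62 over all 18992 genes tested. The class medians were 10.2 for sodium, 8.58 for calcium, 7.55 for HCN and 3.42 for potassium channel genes, and each class except HCN spanned more than 2 orders of magnitude.

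**Figure D1:**
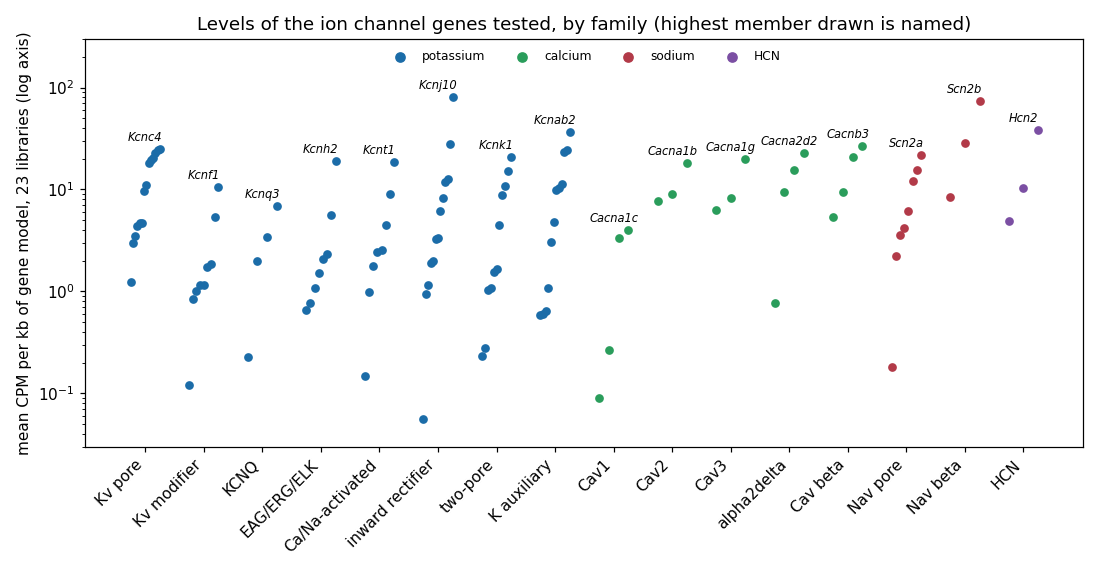
Mean level of 111 of the 115 channel genes tested, in CPM per kb of gene model over 23 libraries on a log axis, by subunit family and coloured by class, with the highest gene drawn in each family named. Kcnj10 and Scn2b stand highest of those drawn, at 81.1 and 74.4.

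A glial gene and an auxiliary subunit gene were among the highest. Kcnj10, which encodes the Kir4.1 channel through which astrocytes and oligodendrocytes clear potassium, had 81.1 ± 8.65 CPM per kb (SD over 23 libraries), and Scn2b, the beta2 subunit of sodium channels, 74.4 ± 4.47. The neighbours Kcnj10 and Scn2b overlapped over libraries, with ranges of 65.9 to 101 and 64.4 to 81.4. Hcn2 ranged from 28.2 to 53.4 with a mean of 38.1, below every Scn2b value. Lower levels followed for Kcnab2 (36.5), a beta subunit of Kv1 channels, Scn3b (28.3), the G-protein-gated Kir3.3 gene Kcnj9 (28.2) and the calcium channel beta3 gene Cacnb3 (26.4).

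Scn2a was the highest sodium pore at 21.8 CPM per kb, followed by Scn1a at 15.6 and Scn8a at 12.1. Cacna1g, a T-type calcium channel that supports burst firing, had 20.0, and Cacna1b, the N-type channel of presynaptic release, 18.0. The L-type genes Cacna1c and Cacna1d were lower, at 4.03 and 3.31, and the muscle and retinal L-type genes Cacna1s and Cacna1f had 0.263 and 0.0903. In the HCN class, Hcn2 exceeded Hcn3 (10.2) and Hcn4 (4.88). The lowest tested member was Kcnj15, at 0.0556.

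Summed over the 92 genes, potassium channels took 631 ± 23.9 CPM per kb in Control d14 (SD, n = 5), 645 ± 18.0 in ExpOF d14, 699 ± 25.2 in Control d14+3 and 694 ± 39.8 in ExpOF d14+3 (n = 6 each). The highest Control d14 sum was 662.62 and the lowest Control d14+3 sum 663.29, while ExpOF d14 (611 to 661) and ExpOF d14+3 (644 to 765) overlapped. Sodium channel sums were 251 ± 20.6, 247 ± 7.08, 284 ± 21.0 and 270 ± 18.0 in the same order of groups. Calcium channel sums stayed between 178 ± 14.6 in Control d14 and 192 ± 9.83 in ExpOF d14+3. HCN sums were 52.9 ± 3.92, 51.8 ± 3.02, 59.2 ± 8.58 and 57.1 ± 7.29. All sodium, calcium and HCN ranges overlapped between the diet groups of each day.

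To ask whether overfeeding altered channel expression, ExpOF and control mice were compared on d14. No channel gene passed an adjusted p of 0.05 in edgeR's quasi-likelihood test with Benjamini-Hochberg adjustment (0 of 115, smallest adjusted p = 0.135), where 1 of 18992 genes, 0.00527%, did. DESeq2 called 0 as well (smallest adjusted p = 0.0531), where it called 0.874% of all genes. At an unadjusted p under 0.05, 29 channel genes (25.2%) were higher and 4 (3.48%) lower in ExpOF. Over all genes tested, 13.1% were higher and 13.6% lower at that threshold. The median log2 fold change was 0.09 over the channel genes and -0.02 over all genes.

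The 4 classes had positive medians on d14, namely 0.06 for potassium, 0.12 for calcium, 0.12 for sodium and 0.14 for HCN channel genes. Within the potassium class the Kv pore genes, which repolarize the action potential, had 12 of 15 fold changes above 0, 8 of them at an unadjusted p under 0.05, where 46.6% of all genes were above 0 and 13.1% were higher at that threshold. The EAG, ERG and ELK family had 6 of 8 above 0 and 3 at that threshold, and the M-current family (KCNQ) 3 of 5 and 2. The inward rectifiers had 5 of 13 above 0 and the two-pore leak channels 5 of 11, with medians of -0.07 and -0.02. The Nav pore genes had 7 of 8 above 0 and a median of 0.23, while the Nav beta genes had 2 of 4 and a median of -0.05. Over all classes, pore-forming genes had 61 of 91 fold changes above 0 and auxiliary genes 11 of 24.

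**Figure D2:**
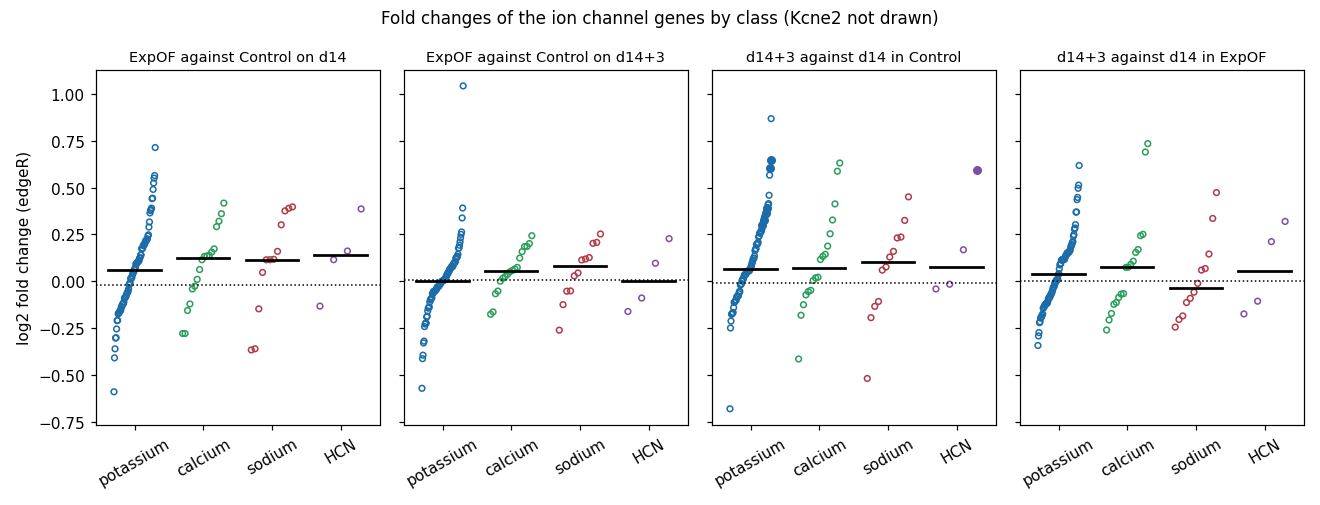
Log2 fold change from edgeR of each channel gene tested, by class, in 4 comparisons. Points are genes, filled where the adjusted p is under 0.05, black bars are class medians, the dotted line is the median of all 18992 genes, and Kcne2 is not drawn because its values, from -3.25 to 2.07, exceed the axis. Filled points appear only for d14+3 against d14 in Control.

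The groups did not overlap on d14 for 4 channel genes. Kcnd2, Kcnh7 and Kcnj5 were higher in every ExpOF library, as were 1.54% of all genes, and Kcnj8 was lower in every ExpOF library, as were 0.958% of all genes. Kcnd2 encodes Kv4.2, which carries the dendritic A-type current. Its Control d14 libraries had 97.0, 81.9, 93.6, 82.7 and 97.1 CPM, and the ExpOF d14 libraries ran from 99.2 (lowest) over 104 (median) to 113 (highest). The log2 fold change was 0.22 (SE 0.07, adjusted p = 0.135). Kcnh7, the ERG3 channel gene, had 32.8, 19.7, 27.2, 19.2 and 25.1 CPM in Control d14. ExpOF d14 ran from 32.95 over 35.1 to 42.3, a log2 fold change of 0.52 (SE 0.15, adjusted p = 0.135).

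Kcnj5, which encodes the Kir3.4 subunit of G-protein-gated channels, was named after its values were seen. It had 15.7, 15.4, 15.4, 13.2 and 15.2 CPM in Control d14 and ran from 16.0 over 16.3 to 16.7 in ExpOF d14. The log2 fold change was 0.13 (SE 0.07, edgeR adjusted p = 0.215). Kcnj8 encodes Kir6.1, the pore of the ATP-sensitive channel of pericytes and vascular smooth muscle. It had 4.75, 6.90, 4.72, 7.79 and 5.75 CPM in Control d14 and ran from 3.67 over 3.88 to 4.64 in ExpOF d14. Its fold change was -0.59 on the log2 scale (SE 0.16, adjusted p = 0.135). The 4 pericyte and smooth muscle markers summed to 139 to 148 CPM in Control d14 and 130 to 144 in ExpOF d14, with 2 of 4 lower at an unadjusted p under 0.05 and none at 0. Their part in the Kcnj8 difference was not tested. On d14 4 of 8 hypothalamic markers were lower and 1 higher at that threshold, and 1 of 8 neuronal markers was higher.

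Kcnb2, Cacnb4 and Scn1a, each at an unadjusted p under 0.05 on d14, showed overlapping groups, with Control d14 replicate 1 at the ExpOF level. Kcnb2, the Kv2.2 delayed rectifier gene, had 21.95 CPM in that library and 12.5, 16.5, 10.5 and 13.6 in the other Control d14 libraries, against 18.4, 22.4 and 24.8 (lowest, median, highest) in ExpOF d14. The log2 fold change was 0.56 (SE 0.17, adjusted p = 0.135). Cacnb4, which encodes the calcium channel beta4 subunit, had 86.8 CPM in replicate 1 and 49.9, 66.6, 54.7 and 68.2 in the others, against 78.7, 85.4 and 100.4 in ExpOF d14 (log2 fold change 0.42, SE 0.14, adjusted p = 0.135).

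Scn1a, whose Nav1.1 channel supports firing of inhibitory neurons, had 188 CPM in replicate 1 and 108, 157, 130 and 119 in the others, against 168, 182 and 201 in ExpOF d14 (log2 fold change 0.38, SE 0.13, adjusted p = 0.135). For Kcnb2, Cacnb4 and Scn1a the control library labelled replicate 1 lay within the ExpOF range, and the other 4 control libraries lay below every ExpOF library. How many of all genes did the same was not counted, and without replicate 1 edgeR called 22% of all genes.

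Further genes at an unadjusted p under 0.05 on d14 were higher in ExpOF with overlapping groups and no adjusted p under 0.05. In the Kv family, the Kv1 genes Kcna1, Kcna2 and Kcna3, which set threshold and repolarization along the axon, had log2 fold changes of 0.44 (SE 0.21), 0.21 (SE 0.09) and 0.71 (SE 0.33). Kcna3, the widest positive value of all channel genes, ran from 2.07 over 3.62 to 9.09 CPM in Control d14 and from 5.09 over 7.73 to 10.3 in ExpOF d14.

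Kcnq3, a subunit of the M-current, which restrains repetitive firing, had 0.29 (SE 0.11). Kcnn3, a small-conductance calcium-activated channel of the afterhyperpolarization, had 0.36 (SE 0.12), and Hcn3 had 0.16 (SE 0.07). Among sodium pores, Scn2a had 0.30 (SE 0.13) and Scn3a 0.40 (SE 0.18), and the alpha2delta1 gene Cacna2d1, whose product is the gabapentin receptor, had 0.36 (SE 0.17). In Scn3a and Cacna2d1 the highest library of both groups was Control d14 replicate 1, at 100.2 and 238 CPM.

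**Figure D3:**
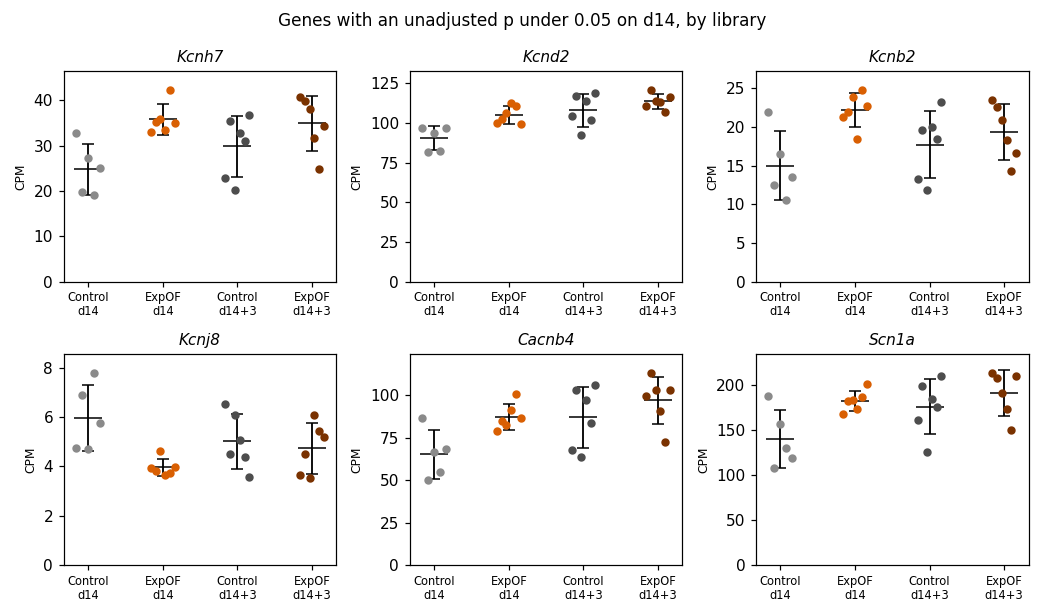
CPM of 6 channel genes in each of the 23 libraries by group, with the group mean and SD in black and each axis starting at 0. Kcnd2, Kcnh7 and Kcnj8 separate the groups on d14 without overlap, and 1 Control d14 library stands at the ExpOF level for Kcnb2, Cacnb4 and Scn1a.

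Without that library, replicate 1 of Control d14, edgeR called 35 of 115 channel genes, 33 of them higher in ExpOF, where 22% of all 19206 genes tested then were called. Leaving out any other library gave 0. The ribosomal protein genes of that library summed to 8432 CPM, below every ExpOF d14 library (8870 to 10238) and the other Control d14 libraries (9766 to 14764), and its RNA integrity number was 8.6 against 8.0 to 10.0 in the others. Their part in the count was not tested. The channel genes are long, with a median gene model of 5215 bases against 3787 over all genes tested, and 87 of 115 lay above the latter. When each library's trend with gene length was removed, the median log2 fold change on d14 was 0.02 over the channel genes and 17 were higher at an unadjusted p under 0.05, with 9.92% of all genes higher. The mice came in 2 cohorts, each with 3 mice of every group before the exclusion. The channel genes had a median of 0.11 in July and of 0.02 in September. After the exclusion, the September controls of d14 were replicates 1 and 5, and the part of replicate 1 in the cohort difference was not tested.

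On d14+3, 3 days after the infusion ended, the same comparison called 0 of 115 channel genes in edgeR (smallest adjusted p = 0.520) and 0 in DESeq2, where edgeR called 0% and DESeq2 0.29% of all genes. At an unadjusted p under 0.05, 1 channel gene was higher (2.91% of all genes were) and 1 lower (4.2% of all genes were). Kcnt2, which encodes the sodium-activated Slick channel, ran from 7.62 over 12.04 to 14.0 CPM in Control d14+3 and from 11.8 over 14.8 to 17.1 in ExpOF d14+3 (log2 fold change 0.34, SE 0.13, adjusted p = 0.590). It had also been higher on d14 at an unadjusted p under 0.05 (0.38, SE 0.14). Kcns1, a silent Kv9.1 subunit that modifies Kv2 channels, ran from 1.94 over 3.04 to 3.75 in control and from 1.33 over 2.01 to 2.74 CPM in ExpOF mice (log2 fold change -0.57, SE 0.20, adjusted p = 0.520).

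No channel gene separated the diet groups on d14+3 without overlap in either direction, where 0.121% of all genes did so upward and 0.3% downward. The medians of the log2 fold change were 0.00 for potassium, 0.05 for calcium, 0.08 for sodium and 0.00 for HCN channel genes, against 0.01 over all genes. With the RNA integrity number as a covariate, 19 channel genes had an unadjusted p under 0.05, 9 higher (5.53% of all genes) and 10 lower (6.92% of all genes), and 0 were called.

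Whether the diet difference changed between the days was tested as an interaction. It was called for 0 of 115 channel genes in edgeR (smallest adjusted p = 0.903) and 0 in DESeq2, with 0% of all genes called by either. At an unadjusted p under 0.05, 3 channel genes (2.78% of all genes) had a more positive diet difference on d14+3, namely Kcne2, Kcnj8 and Kcnk6, and 1 (1.64% of all genes) a more negative one, Kcnmb2. Kcnk6, a two-pore channel gene, and Kcnmb2, a BK channel beta subunit gene, were named after their values were seen.

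Kcne2 gave the widest fold changes of any channel gene on d14 and in the interaction. It encodes a small auxiliary subunit that pairs with Kcnq1 in secretory epithelia, including the choroid plexus. Control d14 replicate 5 had 11.8 CPM and the other control libraries of d14 had 0.326, 0.460, 0.542 and 0.546. ExpOF d14 ran from 0.165 over 0.257 to 0.444, Control d14+3 from 0.220 over 0.423 to 0.686, and ExpOF d14+3 from 0.177 over 0.226 to 5.35, the last in replicate 4. The log2 fold change was -3.25 on d14 (SE 1.07, adjusted p = 0.135), and the interaction was 4.77 (SE 1.48, adjusted p = 0.903). Without Control d14 replicate 5 the d14 value was -0.71 and the interaction 2.22. Without ExpOF d14+3 replicate 4 the interaction was 2.60.

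The same libraries held high levels of choroid plexus genes. Ttr, the transthyretin gene that dominates choroid plexus epithelium, had 2889 CPM in Control d14 replicate 5 and 1204 in ExpOF d14+3 replicate 4, and 1.01 to 29.9 in the 21 other libraries. The 5 choroid plexus markers (Ttr, Folr1, Kl, Clic6 and Cldn2) summed to 35.0 to 3034 CPM in Control d14, 34.2 to 39.7 in ExpOF d14, 36.8 to 60.7 in Control d14+3 and 34.3 to 1294 in ExpOF d14+3, with none at 0. On d14 all 5 had a negative fold change, 4 at an unadjusted p under 0.05. Kcnj13, the Kir7.1 gene of the same epithelium, did not pass the filter, with 7.68 CPM in Control d14 replicate 5, 3.18 in ExpOF d14+3 replicate 4 and at most 0.466 in any other library. The part of the choroid plexus in the Kcne2 difference was not tested beyond the values without these libraries.

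**Figure D4:**
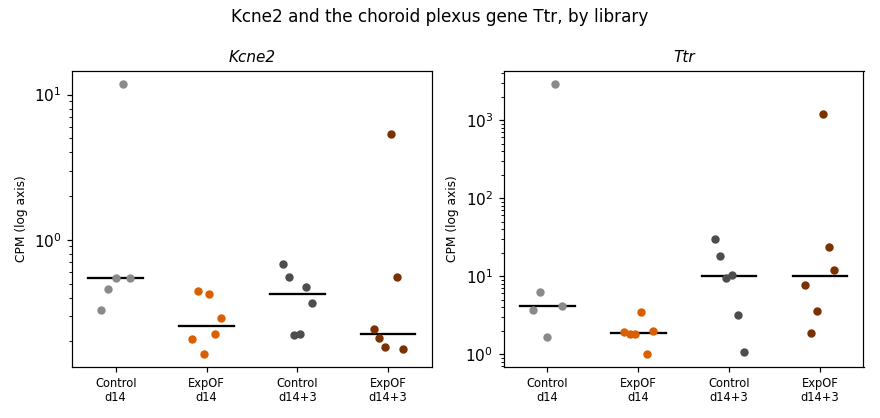
CPM of Kcne2 and of the choroid plexus gene Ttr in each of the 23 libraries by group, on log axes, with group medians in black. The highest Kcne2 value of Control d14 (11.8) and of ExpOF d14+3 (5.35) come from the libraries with the highest Ttr (2889 and 1204).

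RefSeq (GRCm38.p6) lists promoters, taken as 250 bases before to 50 after the transcription start, for 93 of the 128 genes. The Kcne2 promoter, chr16:92292139-92292438 on the plus strand with a GC content of 53.0%, is 1 of 2 listed for the gene and is printed as an epithelial member to set beside the neuronal ones below. Capitals mark the GC box GGGCGG, here on the minus strand, and the cAMP response half-site TGACG, here on both strands.
Kcne2: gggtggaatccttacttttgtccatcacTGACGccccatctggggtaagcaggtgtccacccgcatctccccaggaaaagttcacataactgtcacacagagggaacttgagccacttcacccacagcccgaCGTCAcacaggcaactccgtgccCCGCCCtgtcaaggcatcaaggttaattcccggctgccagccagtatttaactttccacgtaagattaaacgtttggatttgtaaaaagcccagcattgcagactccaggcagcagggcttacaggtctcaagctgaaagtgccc
Over all 32851 promoters searched on both strands, 35.7% held GGGCGG and 20.8% TGACG, against 46.9% and 18.0% of the 128 promoters of channel genes. TATAAA was in 13.6% of all and 5.47% of channel promoters, CCAAT in 37.4% and 28.1%, and AGGTCA in 16.3% and 7.81%.

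Each diet group was then compared between the days, with the same libraries as in the diet comparisons. Low values in Control d14 would raise both the d14 diet difference and the control day difference, so the 2 are not independent. In control mice, edgeR called 7 of 115 channel genes (6.09%), all higher on d14+3, where 1.15% of all genes were called, and DESeq2 called 13, all higher, where 2.8% of all genes were. At an unadjusted p under 0.05, 33 were higher (6.81% of all genes) and 6 lower (5.93% of all genes). By class, 21 of 81 potassium, 7 of 18 calcium, 4 of 12 sodium and 1 of 4 HCN channel genes were higher at that threshold. In the same order, 3, 1, 2 and 0 were lower. The 13 called by DESeq2 included the calcium channel gene Cacnb2 (adjusted p = 0.0116) and the sodium channel gene Scn2b (adjusted p = 0.0181). The 7 called by edgeR comprise Kv subunits, an inward rectifier, the BK channel and an HCN channel, and no calcium or sodium channel gene. The count was 0 when only these groups were fitted, 0 in either cohort alone, 2 with the replicate number as a block (Kcnc2 and Kcns2), and 2 without Control d14 replicate 2 or without replicate 3. The interval between the days and the dissection session cannot be told apart in this design.

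Kcnc2 encodes Kv3.2, a fast delayed rectifier of rapidly firing neurons, at chr10:112271121-112465412 in mm10. Control d14 libraries had 98.1, 97.9, 96.6, 121 and 129 CPM, and Control d14+3 ran from 139 over 167 to 185, without overlap. The log2 fold change was 0.60 (SE 0.10, edgeR adjusted p = 0.00670, exact permutation test p = 0.00216). The permutation p is the lowest possible for groups of this size and was not adjusted for the number of genes. Kcns2, the silent Kv9.2 subunit at chr15:34837355-34843225, had 23.0, 21.9, 19.2, 25.6 and 24.9 CPM in Control d14. Control d14+3 ran from 28.0 over 38.2 to 40.35, again without overlap, a log2 fold change of 0.65 (SE 0.11, adjusted p = 0.00742).

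Hcn4, the slowly gating pacemaker channel at chr9:58823412-58863175, had 23.4, 21.5, 21.3, 26.0 and 27.3 CPM in Control d14. Control d14+3 ran from 28.1 over 35.7 to 46.7, a log2 fold change of 0.60 (SE 0.12, adjusted p = 0.0137). Kcna4, which encodes the A-type Kv1.4 channel, had 21.6, 16.7, 17.9, 18.9 and 21.9 CPM against 22.2, 24.4 and 26.1 (lowest, median, highest), a log2 fold change of 0.33 (SE 0.07, adjusted p = 0.0171). Kcnab1, the Kv beta1 subunit that confers inactivation on Kv1 channels, had 42.7, 40.2, 42.8, 46.9 and 49.95 CPM against 52.5, 58.9 and 62.2, a log2 fold change of 0.39 (SE 0.08, adjusted p = 0.0186). None of these 3 genes overlapped between the days in control mice.

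Kcnj3, the Kir3.1 subunit of G-protein-gated channels, had 55.4, 46.0, 53.9, 53.4 and 59.2 CPM in Control d14 and 57.7, 67.5 and 70.3 in Control d14+3, a log2 fold change of 0.30 (SE 0.07, adjusted p = 0.0269). Kcnma1, the BK channel pore, had 152, 98.5, 134, 119 and 127 CPM against 143, 165 and 179, a log2 fold change of 0.36 (SE 0.09, adjusted p = 0.0474). In both genes the days overlapped by 1 control library of d14. Kcnc2, Kcns2, Hcn4 and Kcna4 overlap no other annotated gene, whereas Kcnab1, Kcnj3 and Kcnma1 overlap genes on the opposite strand, as do 58 of the 128 channel genes. Whether reads were counted by strand is not given in the sources used here.

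**Figure D5:**
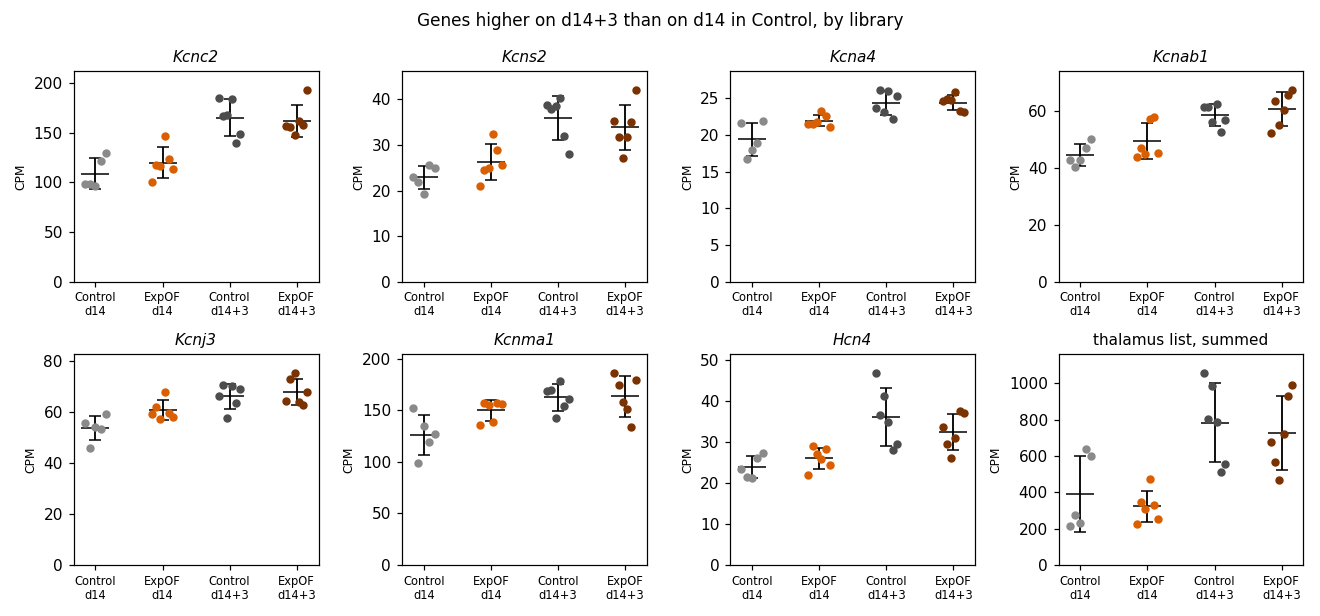
CPM of the 7 channel genes called for d14+3 against d14 in Control, and the summed CPM of 9 thalamic genes, in each of the 23 libraries by group, with the group mean and SD in black and each axis starting at 0. All 8 panels have a higher mean on d14+3 than on d14 in both diet groups.

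Across all 115 channel genes, 8 were higher on d14+3 in control mice without overlap, against 1.08% of all genes, and 1, Kcnip2, was lower, against 0.495%. In overfed mice, edgeR called 0 of 115 (smallest adjusted p = 0.0677), with 0% of all genes called, and DESeq2 called 3, Kcnc2, Kcnab1 and Cacna2d3, and 1.06% of all genes. At an unadjusted p under 0.05, 21 were higher (5.39% of all genes) and 5 lower (2.4% of all genes). Kcnc2 ran from 99.95 over 117 to 146 CPM in ExpOF d14 and from 147 over 157 to 193 in ExpOF d14+3, a log2 fold change of 0.44 (SE 0.09, edgeR adjusted p = 0.0677). It was the only channel gene without overlap in the upward direction (0.632% of all genes), and Kcnh4 was the only one downward (0.2% of all genes). The choice to name Kcnip2 and Kcnh4 was made from their values.

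The other 6 genes called in control mice had fold changes above 0 in overfed mice. They were 0.37 (SE 0.11) for Kcns2, 0.32 (SE 0.11) for Hcn4, 0.30 (SE 0.08) for Kcnab1, 0.16 (SE 0.07) for Kcnj3, 0.15 (SE 0.06) for Kcna4 and 0.13 (SE 0.09) for Kcnma1, with adjusted p from 0.115 to 0.817. Kcnma1 did not reach an unadjusted p of 0.05 there. No interaction of these genes reached an unadjusted p of 0.05, so the 2 diet groups were not shown to differ in the day comparison.

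Among calcium and sodium channel genes, none was called between the days by edgeR in either diet group. DESeq2 called Cacnb2 and Scn2b in control mice and Cacna2d3 in overfed mice. The T-type genes had opposite signs, with log2 fold changes of 0.25 (SE 0.10) in control and 0.24 (SE 0.10) in overfed mice for Cacna1g and -0.18 (SE 0.08) and -0.21 (SE 0.08) for Cacna1h. Cacna1g ran from 160 over 183 to 199 CPM in Control d14 and from 185 over 217 to 259 in Control d14+3. The L-type gene Cacna1c did not overlap between the days in control mice, with 50.9, 75.2 and 89.19 CPM (lowest, median, highest) against 89.33, 92.0 and 105 (log2 fold change 0.33, SE 0.11, adjusted p = 0.184). Scn4b, the beta4 subunit of resurgent sodium current, had 0.45 (SE 0.15) in control and 0.47 (SE 0.14) in overfed mice, and Scn8a, the Nav1.6 pore, 0.23 (SE 0.08) in control mice. Glial Kcnj10 had 0.20 (SE 0.08) and 0.18 (SE 0.07), and the neuronal Kir3.3 gene Kcnj9 0.35 (SE 0.13) and 0.37 (SE 0.12).

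Marker genes of a neighbouring region moved with the day comparison. A list of 9 thalamic genes (Tcf7l2, Lef1, Prkcd, Gbx2, Rgs16, Tnnt1, Synpo2, Plekhg1 and Ntng1) was written after the data were seen, so its counts describe and do not test. In both diet groups 9 of 9 were higher on d14+3 at an unadjusted p under 0.05. Over all genes, 6.81% were higher in control and 5.39% in overfed mice. The thalamic genes had a median log2 fold change of 1.02 in control and 1.178 in overfed mice. Their sum was 215 to 636 CPM in Control d14, 227 to 472 in ExpOF d14, 514 to 1055 in Control d14+3 and 470 to 993 in ExpOF d14+3, with none at 0. Within Control d14, the libraries with 636 and 601 CPM had 121 and 129 CPM of Kcnc2, and those with 215 to 274 had 96.6 to 98.1. The same libraries were also the highest of Control d14 for Kcns2, Hcn4 and Kcnab1, but not for Kcna4, Kcnj3 and Kcnma1. All 8 hypothalamic markers were below 0 on d14+3 in both diet groups, with medians of -0.50 and -0.41 in log2 fold change, 4 and 3 of them at an unadjusted p under 0.05. Of the 8 neuronal markers, 7 were above 0 in control and 8 in overfed mice, 4 of them in each at that threshold. A list of cortex and hippocampus genes, added with the thalamic list, also had a higher median sum on d14+3, with overlapping ranges. The medians were 18.4 CPM in Control d14, 22.2 in ExpOF d14, 49.7 in Control d14+3 and 40.2 in ExpOF d14+3. Control d14 replicates 5 and 6, which had the highest thalamic sums of that group, had 39.5 and 33.8 CPM. The other Control d14 libraries kept had 13.9 to 18.4. By gene the list was mixed, with 3 of 4 tested above 0 in control and 1 of 4 in overfed mice. Its median log2 fold changes were 0.23 and -0.26. In control mice 1 was higher at that threshold, and in overfed mice 1 was higher and 1 lower. The part of tissue composition in the higher channel genes was not tested.

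Of the 7 called genes, the promoters of Kcnc2 and Hcn4 are shown as the Kv and the HCN member of that set. The Kcnc2 window, chr10:112270871-112271170 on the plus strand, is 1 of 4 listed for the gene and has a GC content of 52.7%. The Hcn4 window, chr9:58822699-58822998 on the plus strand, has 71.7% and lies before the start annotated in the count table. Capitals mark CCAAT in Kcnc2 and GGGCGG, found at 2 places, in Hcn4, each on the minus strand, and neither shares a marked motif with the other.
Kcnc2: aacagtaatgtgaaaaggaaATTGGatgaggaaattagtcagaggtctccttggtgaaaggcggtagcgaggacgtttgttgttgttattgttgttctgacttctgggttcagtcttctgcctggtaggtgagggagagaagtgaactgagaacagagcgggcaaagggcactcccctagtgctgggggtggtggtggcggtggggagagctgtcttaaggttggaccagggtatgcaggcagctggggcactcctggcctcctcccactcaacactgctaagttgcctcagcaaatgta
Hcn4: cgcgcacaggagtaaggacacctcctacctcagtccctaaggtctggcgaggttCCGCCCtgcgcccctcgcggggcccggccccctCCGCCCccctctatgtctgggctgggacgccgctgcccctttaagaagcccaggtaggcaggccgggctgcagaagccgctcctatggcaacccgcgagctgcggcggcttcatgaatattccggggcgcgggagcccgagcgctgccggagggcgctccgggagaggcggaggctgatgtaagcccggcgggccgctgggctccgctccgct
These letters describe the windows and do not locate a factor's binding.

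Genes that work with the channels but lie outside the symbol rule, such as the Kv4 partners Dpp6 and Dpp10, the sodium channel partners Fgf11 to Fgf14 and the leak channel gene Nalcn, were described by counts. Of 39 listed, 36 were tested. On d14, 27 were above 0 in ExpOF and 11 of them at an unadjusted p under 0.05, with 0 lower and 0 called, where 13.1% of all genes were higher and 13.6% lower, and the median log2 fold change was 0.10. On d14+3, 25 of 36 were above 0 and 0 reached that threshold, where 2.91% of all genes were higher and 4.2% lower, with a median of 0.03. Between the days, 11 were higher and 1 lower at an unadjusted p under 0.05 in control mice, with 1 called, where 6.81% of all genes were higher, 5.93% lower and 1.15% called. In overfed mice 4 were higher and 1 lower, with 0 called, where 5.39% of all genes were higher, 2.4% lower and 0% called.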

How the data were processed

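Poly-A selected, stranded libraries of 24 hypothalami were sequenced by the study. Per the study's methods, the authors used STAR on the mm10 assembly and featureCounts 1.6.4 with GENCODE genes, and the deposited values are raw counts per gene without normalization. No source used here says whether featureCounts was run by strand. In R 4.3.3, edgeR 4.0.16 was run with TMM and filterByExpr (at least 10 counts, at least 15 in total), and 1 robust quasi-likelihood fit covered the 4 groups. Adjusted p-values follow Benjamini-Hochberg over 18992 genes, and calls required a value under 0.05. DESeq2 1.42.0 was an alternative. CPM use TMM-scaled library sizes. Exact permutation tests were two-sided on log2 CPM with a prior count of 2. The mean expression given by the study was matched by the 23 libraries without Control d14 replicate 4 (median difference 7.16e-05% over 1998 genes, against 4.40% to 6.24% for any other choice), which was therefore left out. The scripts were tested on simulated data. No 2 libraries of a group were duplicates (smallest chi-square per degree of freedom 2.95 over 60 pairs). Mice were housed singly after surgery, per the study's methods. Nothing states separate litters, so p-values measure the spread between these mice.

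Gene symbols came from GENCODE vM21, which matched 55144 genes. Named genes were a panel by role, the 3 members with the largest fold change in each direction on each day among those with a mean of at least 50 counts, each member called in edgeR or DESeq2, and the 3 highest of each class per kb. Of the channel genes, 4 are not reported by name here and enter the counts, sums and medians only. The members and lists were chosen with earlier results of these data known. Alternatives were other filters and size factors, DESeq2, all 24 libraries, only the groups compared, single cohorts, covariates, a replicate block, removal of the trend with gene length (spline with 5 degrees of freedom) and each library left out in turn.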

Additional observations from a re-analysis of the deposited data

Results flagged for a closer look

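Over 45 channel genes in 4 groups each, 7 of 180 groups held a library that stood far from the others, and chance alone flags about 1 in 20 groups. Kcne2 did so in a pair of groups, with 11.8 CPM in Control d14 replicate 5 and 5.35 CPM in ExpOF d14+3 replicate 4, the libraries with the highest Ttr. ExpOF d14+3 replicate 6 did so for the Kv3.2 gene Kcnc2 (193 CPM) and for Kcng4, a silent Kv6.4 subunit (14.1 CPM), and this library had the highest thalamic sum of its group. Scn4b, the sodium channel beta4 gene, stood at 54.9 CPM in Control d14 replicate 5. Kcnh7 stood at 42.3 CPM in ExpOF d14 replicate 5, and Kcnj8 at 4.64 CPM in ExpOF d14 replicate 3.

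The interaction of diet and day reached an unadjusted p under 0.05 for Kcne2 (4.77 on the log2 scale), Kcnj8 (0.50), Kcnk6 (0.35) and Kcnmb2 (-0.46). That is 2.61% of the channel genes tested in the positive and 0.87% in the negative direction, against 2.78% and 1.64% of all genes. No channel gene passed adjustment (edgeR, smallest adjusted p = 0.903).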

How the results depend on the processing

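On d14 no channel gene was called except when libraries were left out in turn, which gave 0 to 35, with 35 without Control d14 replicate 1. For d14+3 against d14 in control mice, the 7 calls became 13 in DESeq2, 0 in a fit of only the groups compared, 0 in either cohort alone, and 2 to 14 with one library left out (14 without Control d14 replicate 1, 11 without Control d14+3 replicate 5, 2 without Control d14 replicate 2 or 3, and 3 or 4 without Control d14+3 replicate 1, 2 or 4). In overfed mice the 0 calls became 3 in DESeq2, 2 in a fit of only the groups compared, 1 with at least 10 counts in every library, 1 with cohort and extraction round as covariates, and 0 to 4 with one library left out (4 without ExpOF d14+3 replicate 3, 2 without ExpOF d14 replicate 4). The potassium class median was 0.00755 on d14 in the September cohort, and on d14+3 it was 0.0532 in July and -0.0437 in September. The calcium class median on d14 was -0.0577 with the gene length trend removed. That setting also reversed Cacnb2 (-0.0538) on d14, and the July cohort alone reversed the Kcne2 interaction (-0.0057). The causes were not tested, and each cohort alone held fewer mice. Replicate numbers did not pair the libraries: correlations of same-numbered libraries ran from -0.21 to 0.22. A replicate block left 2 calls in control mice between the days and 0 in the other comparisons.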
